A study of Mus musculus with 30 samples.

Results

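Tropomyosins, tropomodulins and leiomodins are the proteins that cover the thin filament and set its slow-growing, or pointed, end. The 10 genes described here were chosen by name: the tropomyosins Tpm1, Tpm2, Tpm3 and Tpm4, the tropomodulins Tmod1, Tmod2, Tmod3 and Tmod4, and the leiomodins Lmod2 and Lmod3. They are 10 of 30205 mouse genes in the tables, of which 23214 had a count above 0 in some library. All 10 passed the filter on low counts in every fit. For Tpm1, Tpm2 and Tpm3 the values were also taken by transcript, 43 in all, of which 41 were above 0 in some library.

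On the mm10 build the tropomyosins lie at chr9:67022590-67049406 (Tpm1, minus strand), chr4:43514711-43523765 (Tpm2, minus), chr3:90072649-90100902 (Tpm3, plus) and chr8:72134975-72153142 (Tpm4, plus). The tropomodulins lie at chr4:46038935-46116032 (Tmod1, plus), chr9:75565621-75611325 (Tmod2, minus), chr9:75497707-75559657 (Tmod3, minus) and chr3:95124476-95129209 (Tmod4, plus), with Tmod2 and Tmod3 side by side. The leiomodins lie on 1 chromosome, at chr6:24597762-24605414 (Lmod2, plus) and chr6:97238534-97252759 (Lmod3, minus).

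RNA was sequenced from 2 kinds of mouse muscle cells during differentiation, with 3 libraries in each of 10 groups. Primary myoblasts, isolated from hindlimb muscle of 8-week-old C57/Bl6J mice and depleted of fast-adhering cells by pre-plating, were taken at day 0, before serum withdrawal, and at days 4 and 7 on patterned gelatin. The label of the primary day 0 libraries gives plastic as their substrate, while the study's methods describe dishes coated with a basement-membrane gel for growing these cells. C2C12, an established mouse myoblast line that forms multinucleated myotubes once serum is withdrawn, was taken at day 0 on plastic, and at days 4 and 7 on each of patterned gelatin (a hydrogel molded with parallel grooves), unpatterned gelatin (the same hydrogel left flat) and plastic. For primary cells, and for C2C12 on gelatin, day and substrate changed together between day 0 and day 4 and cannot be told apart. The methods also give different growth media. Primary myoblasts were grown in Ham's F-10 with basic fibroblast growth factor, and C2C12 in DMEM with less serum. At day 0 growth medium and kind of cell cannot be told apart. It was not stated whether the 3 primary replicates were 3 mice, and C2C12 replicates are cultures of 1 line, so p-values measure the spread between these samples. The study used 2 batches of C2C12 and reports that the single genes regulated often differed between them. The sample titles here name no batch.

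Estimated counts summed to between 13.1 M and 59.4 M per library (median 27.3 M). TPM is a length-corrected share of the RNA in a library and is the scale on which levels are given here. Fold changes and adjusted p-values are from the counts unless said otherwise. Replicate 3 of the primary cells stood apart in all 3 libraries. At day 4 it held 587 TPM of Myh3, the embryonic myosin heavy chain, against 2280 and 2448 TPM in replicates 1 and 2, and 5.27 TPM of Tagln, a smooth-muscle actin-binding protein, against 97.3 and 66.9 TPM. At day 7 it held 14.1 TPM of Ckm, muscle creatine kinase, against 777 and 574 TPM. Primary results that rest on this replicate are also given without it. The summed TPM of 6 myotube markers was 8371 to 13017 in primary cells at day 4 against 1669 to 2555 at day 0, and 9811 to 12163 in C2C12 at day 4 against 1057 to 1421 at day 0. Markers of leukocytes, Schwann cells and endothelium summed to at most 5.54, 2.94 and 17.7 TPM in any library. The 7 smooth-muscle markers summed to 2233 to 2498 TPM in C2C12 at day 4, against 1125 to 1251 TPM at day 0, most of it Acta2, smooth-muscle alpha-actin. In primary cells they summed to 643 to 1365 TPM at day 4, against 1236 to 1617 TPM at day 0. Their defining gene Myh11, smooth-muscle myosin, was at 0.180 TPM or less in every library, and Cnn1, calponin, at 2.17 TPM or less. The 4 neuron markers summed to 18.6 to 28.9 TPM in C2C12 at day 4, against 67.2 to 70.9 TPM at day 0, nearly all of it Stmn2. The part of these markers in the day 4 results was not tested.

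Tropomyosin is a coiled coil that lies end to end along actin filaments. In striated muscle it works with troponin to gate the access of myosin to actin, and in other cells different tropomyosins mark different actin filaments. One gene makes many tropomyosins, which differ by cell type. Transcripts start at alternative first exons (1a or 1b). They are spliced to exon 6a or 6b in the middle of the gene and to alternative last exons (9a, 9b, 9c or 9d). Exon 9a encodes the C-terminal end of the striated-muscle forms of Tpm1, Tpm2 and Tpm3. Tropomodulins cap the pointed end of the filament and bind tropomyosin there, while leiomodins, which are related to them, nucleate filaments and favour their elongation. Thin filament length in sarcomeres depends on both.

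The exons on which the isoform results turn are shown first, as they stand in the GENCODE M21 transcripts on the mm10 build. The first set is exon 9a, the striated-muscle end, of the 3 genes that have it. Capitals mark positions that are not the same in all 3.
Tpm1 exon 9a: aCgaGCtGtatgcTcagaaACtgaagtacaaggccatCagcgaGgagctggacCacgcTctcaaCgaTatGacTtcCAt
Tpm2 exon 9a: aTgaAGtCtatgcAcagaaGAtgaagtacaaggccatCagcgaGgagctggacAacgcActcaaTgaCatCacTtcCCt
Tpm3 exon 9a: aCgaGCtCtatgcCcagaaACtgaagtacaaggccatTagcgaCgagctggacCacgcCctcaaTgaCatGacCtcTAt
These lie at chr9:67029664-67029742 on the minus strand, chr4:43515925-43516003 on the minus strand and chr3:90091013-90091091 on the plus strand. The coding part of the Tpm2 exon is 80 bases and reaches 1 base further, to 43515924. Its last base is left out here so that all 3 stretches have 79 bases. They share 82.3% to 88.6% of positions in pairs. The second set is the coding part of exon 9d, the alternative end that is used outside striated muscle and the only one of these ends that Tpm4 is shown with here. Capitals mark positions that are not the same in all 4.
Tpm1 exon 9d: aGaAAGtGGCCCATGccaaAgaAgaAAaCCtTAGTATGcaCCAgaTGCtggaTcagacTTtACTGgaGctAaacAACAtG
Tpm2 exon 9d: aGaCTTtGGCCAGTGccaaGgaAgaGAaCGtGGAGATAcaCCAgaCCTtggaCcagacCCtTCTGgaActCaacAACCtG
Tpm3 exon 9d: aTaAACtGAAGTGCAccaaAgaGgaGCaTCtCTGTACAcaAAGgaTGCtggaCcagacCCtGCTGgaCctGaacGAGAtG
Tpm4 exon 9d: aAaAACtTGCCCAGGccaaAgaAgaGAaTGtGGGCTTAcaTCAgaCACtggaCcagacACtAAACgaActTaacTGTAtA
They lie at chr9:67023362-67023441 (minus), chr4:43514782-43514861 (minus), chr3:90099528-90099607 (plus) and chr8:72151742-72151821 (plus). The 4 copies are 80 bases long and share 58.8% to 71.2% of positions in pairs, less than the copies of exon 9a. The third set is the mutually exclusive exon 6 pair of Tpm3, with capitals where the 2 exons differ. These are 76 bases each, at chr3:90089048-90089123 and chr3:90088401-90088476 on the plus strand, and are the same at 51.3% of positions.
Tpm3 exon 6b: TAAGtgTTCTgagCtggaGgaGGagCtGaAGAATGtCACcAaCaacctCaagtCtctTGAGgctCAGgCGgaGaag
Tpm3 exon 6a: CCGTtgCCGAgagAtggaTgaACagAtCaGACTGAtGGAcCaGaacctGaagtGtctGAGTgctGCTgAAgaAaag

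The first comparison asks what differentiation did to these genes. In C2C12, 6 of the 10 genes rose by day 4 over the 3 substrates, 3 fell and 1 did not pass the test, in a fit where 65.2% of all genes tested were called (33.1% higher and 32.1% lower). The median log2 change of the 10 was 0.82, against -0.02 over all genes. On plastic, the substrate of day 0, mean TPM at day 4 against day 0 was 1809 against 721 for Tpm1 and 2251 against 288 for Tpm2. It was 450 against 327 for Tpm3 and 221 against 704 for Tpm4. For Tmod1 to Tmod4 it was 94.1 against 16.2, 0.284 against 0.526, 18.8 against 40.1 and 2.46 against 2.77. For Lmod2 and Lmod3 it was 179 against 6.33 and 202 against 9.76. Over the 3 substrates, TPM ranges of the day 4 and day 0 libraries stood apart for 9 of the 10, against 51.3% of all genes. For ranges, here and below, all genes means those with a mean of at least 1 TPM in the libraries compared, in this case 12879. The 10 were counted without that limit, though Tmod2 lies below it. In primary cells 5 rose, 2 fell and 3 did not pass, where 42.6% of all genes were called (20.2% higher and 22.4% lower), with a median of 1.53 against -0.04. Here the ranges stood apart for 8 of the 10, against 54.2% of all genes. In cultures that hold myoblasts and myotubes side by side, fewer cells of a type and less RNA per cell cannot be told apart. The study's methods give a short trypsin treatment, meant to leave mainly myotubes, for cultures taken at days 4 and 7 and not for day 0, and its part in the differences from day 0 was not tested.

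**Figure D1:**
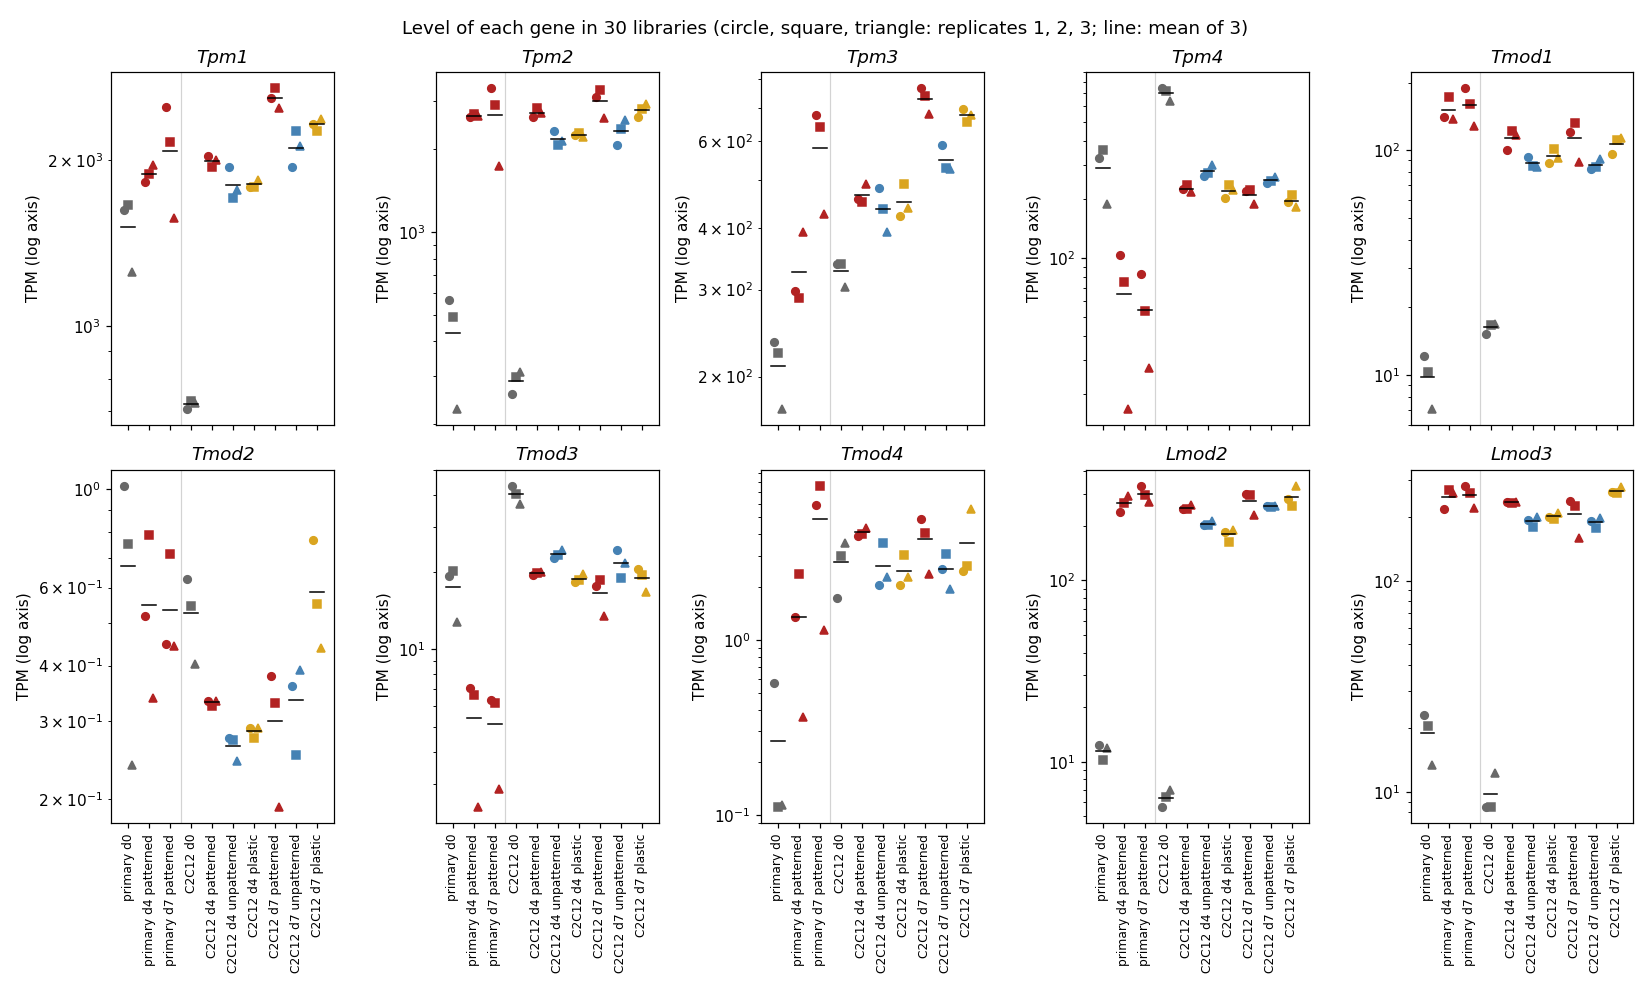
TPM of the 10 genes in all 30 libraries, on a log axis, 1 panel a gene. Circles, squares and triangles are replicates 1, 2 and 3 and the line is the group mean; Lmod2 sits at 5.63 to 12.4 TPM in the 6 day 0 libraries and at 163 TPM or more in every later one.

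**Figure D2:**
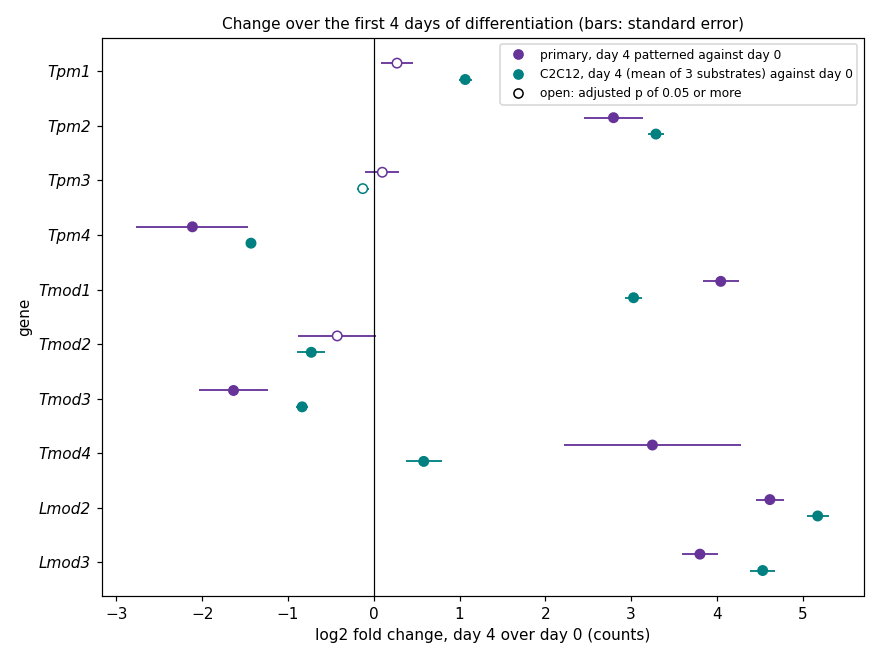
Log2 fold change between day 4 and day 0 for each gene, primary cells above C2C12, with bars of 1 standard error. Open points did not pass an adjusted p of 0.05; Lmod2, Lmod3, Tmod1 and Tpm2 lie far to the right in both kinds of cells, and Tpm4 and Tmod3 to the left.

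Tpm2, which encodes beta-tropomyosin, had the largest difference in TPM of the 4 tropomyosins. It stood at 2613, 2681 and 2633 TPM in primary cells at day 4, against 568, 492 and 227 TPM at day 0. In C2C12 the 9 day 4 libraries ran between 2061 and 2812 TPM with a median of 2296, against 258, 296 and 309 TPM at day 0. Every day 4 library was above every day 0 one. The rise was 9.77-fold in C2C12 (log2 3.29, SE 0.10, adjusted p = 5.46e-16, edgeR quasi-likelihood test, Benjamini-Hochberg) and 6.94-fold in primary cells (log2 2.79, SE 0.34, adjusted p = 0.000335 by the same test). Without primary replicate 3 the primary value was 2.51.

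Tpm1 encodes alpha-tropomyosin and was the most abundant of the 10 in primary cells at day 0, while in C2C12 at day 0 it was level with Tpm4. It held 1828, 1888 and 1962 TPM in primary cells at day 4, against 1624, 1662 and 1256 TPM at day 0. C2C12 had 1708 to 2036 TPM at day 4 (median 1843, 9 libraries), against 706, 732 and 724 TPM at day 0. C2C12 Tpm1 rose 2.09-fold (log2 1.07, SE 0.08, edgeR adjusted p = 2.28e-10). In primary cells, where the day 0 level was already near that of later days, the log2 change was 0.27 (SE 0.18, edgeR adjusted p = 0.273) and did not pass, although every day 4 library was above every day 0 one. Weighted by TPM, Tpm1 transcripts averaged 1283, 1296 and 1311.5 bases in C2C12 at day 4 on patterned gelatin, unpatterned gelatin and plastic. At day 0 they averaged 1664 bases, and in primary cells 1229 bases at day 4 against 1325 bases at day 0. Counts are not corrected for length, so Tpm1 count changes between days or kinds of cells also hold this difference.

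Tpm4, a tropomyosin of non-muscle actin filaments, went the other way. Primary cells had 104, 75.2 and 16.8 TPM at day 4, against 325, 359 and 190 TPM at day 0. C2C12 had 204 to 300 TPM at day 4 (median 236), against 747, 722 and 642 TPM at day 0. The fall was 2.70-fold in C2C12 (log2 -1.43, SE 0.06, edgeR adjusted p = 1.08e-13). In primary cells it was 4.33-fold (log2 -2.11, SE 0.65, edgeR adjusted p = 0.0287), and replicate 3 was the lowest at both days. The primary value without replicate 3 was -1.83 and still passed. Leaving out day 4 replicate 2, day 0 replicate 1 or day 0 replicate 2 ended the primary call, with adjusted p of 0.069, 0.066 and 0.081.

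Tpm3, which makes a slow-fibre tropomyosin and several cytoskeletal ones, gave 2 answers on 2 scales. Its TPM was 393 to 491 in C2C12 at day 4 (median 451), against 338, 338 and 304 TPM at day 0, so that every day 4 library was higher. Its log2 change in counts was -0.13 (SE 0.07, edgeR adjusted p = 0.125). With limma on log2(TPM + 1) the change was 0.46 (limma adjusted p = 9.73e-06), of the opposite sign. The 2 scales differ in how they treat length, and the length of the gene's transcripts moved: weighted by TPM it averaged 1270, 1280 and 1281 bases in C2C12 at day 4 on patterned gelatin, unpatterned gelatin and plastic, against 1954 bases at day 0. In primary cells it averaged 1226 ± 63 bases at day 4 against 1775 ± 71 bases at day 0 (SD, n = 3 each). Primary Tpm3 had 298, 289 and 392 TPM at day 4 against 235, 223 and 172 TPM at day 0, with a log2 change in counts of 0.10 (SE 0.20, edgeR adjusted p = 0.724).

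As a sum, the 4 tropomyosins took 4927 ± 81 TPM in primary cells at day 4, against 2444 ± 519 TPM at day 0 (SD, n = 3 each). In C2C12 they took 5396 ± 52 TPM with patterned gelatin, 4697 ± 283 TPM with unpatterned gelatin and 4731 ± 74 TPM with plastic at day 4, against 2039 ± 55 TPM at day 0. Tpm2 made up 50.2%, 46.3% and 47.6% of that sum on the 3 substrates, against 14.1% at day 0, and Tpm4 4.22%, 5.97% and 4.66%, against 34.5%. In primary cells Tpm2 was 53.6% of the sum at day 4 against 17.0% at day 0, and Tpm4 1.34% against 11.7%.

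Lmod2 and Lmod3, the leiomodins of striated muscle, had the largest folds of the 10 in C2C12. Lmod2 held 239, 267 and 293 TPM in primary cells at day 4, against 12.4, 10.2 and 11.9 TPM at day 0. C2C12 held 163 to 259 TPM at day 4, against 5.63, 6.42 and 6.96 TPM at day 0. The rise was 36.1-fold in C2C12 (log2 5.17, SE 0.13, edgeR adjusted p = 1.00e-16) and 24.5-fold in primary cells (log2 4.62, SE 0.17, edgeR adjusted p = 7.07e-06). Every later library was above every day 0 one, and without primary replicate 3 the primary value was 4.58.

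Lmod3, whose loss is known to cause a nemaline myopathy in humans, followed closely. It had 219, 268 and 260 TPM in primary cells at day 4, against 23.2, 20.5 and 13.5 TPM at day 0. C2C12 had 180 to 237 TPM at day 4, against 8.50, 8.48 and 12.3 TPM at day 0. The log2 change was 4.53 in C2C12 (SE 0.15, edgeR adjusted p = 2.31e-15) and 3.80 in primary cells (SE 0.21, edgeR adjusted p = 1.13e-05).

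Among the tropomodulins, Tmod1, the form that caps thin filaments in striated muscle, rose in both kinds of cells. It stood at 141, 172 and 137 TPM in primary cells at day 4, against 12.1, 10.3 and 7.02 TPM at day 0. C2C12 had 84.3 to 122 TPM at day 4, against 15.2, 16.6 and 16.9 TPM at day 0. The rise was 16.5-fold in primary cells (log2 4.04, SE 0.21, edgeR adjusted p = 8.85e-06) and 8.16-fold in C2C12 (log2 3.03, SE 0.10, edgeR adjusted p = 1.57e-15). The annotated span of Tmod1 overlaps Tstd2 on the opposite strand, which held 23.7 to 57.2 TPM, and strandedness of the libraries was not stated. Likewise Tpm4 overlaps Gm26586 and Gm16091 on the opposite strand, Tmod2 overlaps Gm48822 and Tmod3 overlaps Gm48789 on the same strand, and Tpm3 has a retrogene, Tpm3-rs7, at 0.0496 to 0.837 TPM, which could share its reads. A further one, Tpm3-rs2, was listed at 0 in every library.

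Tmod3, the tropomodulin found in most cell types, fell. Primary cells had 7.10, 6.63 and 2.43 TPM at day 4, against 19.3, 20.2 and 12.8 TPM at day 0. C2C12 had 18.3 to 24.3 TPM at day 4, against 43.3, 40.1 and 36.8 TPM at day 0. No day 4 library reached the lowest day 0 library of its kind of cell. The fall was 1.78-fold in C2C12 (log2 -0.84, SE 0.07, edgeR adjusted p = 4.59e-09) and 3.11-fold in primary cells (log2 -1.64, SE 0.40, edgeR adjusted p = 0.0104), with -1.43 in primary cells without replicate 3.

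The tropomodulin pool changed its main member. Tmod1 was 82.3%, 76.8% and 81.3% of summed tropomodulin TPM in C2C12 at day 4 on patterned gelatin, unpatterned gelatin and plastic, against 27.3% at day 0. Tmod3 was 14.4%, 20.6% and 16.3%, against 67.2%. In primary cells Tmod1 was 95.5% at day 4 against 34.7% at day 0, and Tmod3 3.37% against 62.2%. The quantified set held 1 of 6 annotated Tmod3 transcripts and 3 of 9 of Tmod2, against 5 of 5 for Tmod1 and 6 of 6 for Tmod4. The shares thus rest on unequal transcript sets. Tropomodulins and leiomodins together summed to 673 TPM at day 4 against 58.7 TPM at day 0 in primary cells, and to 624, 510 and 497 TPM on the 3 substrates against 75.7 TPM in C2C12.

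Tmod4, known as the tropomodulin of fast skeletal fibres, was low in every library. In primary cells it had 1.35, 2.36 and 0.361 TPM at day 4, against 0.570, 0.111 and 0.114 TPM at day 0, which were 55 reads against 6 over the 3 libraries of each day. Per unit of library size the ratio of these sums was 9.10, with an exact 95% interval of 3.92 to 25.9 that covers counting error only. The log2 change was 3.25 (SE 1.03, edgeR adjusted p = 0.0324) and was lost on TPM and when any of 5 of the 6 single libraries was left out. In C2C12 Tmod4 had 2.06 to 4.37 TPM at day 4 against 1.74, 3.01 and 3.56 TPM at day 0, ranges that overlap. The C2C12 change of 0.58 (SE 0.21, edgeR adjusted p = 0.0211) did not pass with scaling by library size alone, on TPM, on plastic libraries alone or without day 0 replicate 1. Tmod2, the tropomodulin of neurons, stayed between 0.192 and 1.02 TPM in all 30 libraries. Its C2C12 log2 change of -0.73 passed (SE 0.16, edgeR adjusted p = 0.000584), and its primary change of -0.43 did not (SE 0.45, edgeR adjusted p = 0.489).

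By transcript, Tpm3 exchanged one form for another between day 0 and day 4 in both kinds of cells. Tpm3-205, 1139 bases long with exons 1a, 6b, 9a and 9b, had 247 to 320 TPM in the 9 C2C12 day 4 libraries, against 4.10, 6.46 and 6.32 TPM at day 0. It had 167, 185 and 296 TPM in primary cells at day 4, against 4.77, 3.76 and 3.11 TPM at day 0. Tpm3-201, 2230 bases long with exons 1b, 6a and 9d, averaged 17.7, 20.7 and 28.5 TPM in C2C12 at day 4 on patterned gelatin, unpatterned gelatin and plastic, against 233 TPM at day 0. Its primary values were 14.8, 9.94 and 4.23 TPM at day 4, against 107, 115 and 85.0 TPM at day 0. Both transcripts moved in both kinds of cells beyond the spread of libraries. Tpm3-205 changed by a log2 of 5.85 in C2C12 (SE 0.18, edgeR adjusted p = 1.47e-13) and 6.0 in primary cells (SE 0.34, edgeR adjusted p = 4.97e-05). Tpm3-201 changed by -3.21 (SE 0.23, edgeR adjusted p = 5.51e-09) and -3.27 (SE 0.50, edgeR adjusted p = 0.00308). Another form, Tpm3-202, with exons 1b, 6b, 9a and 9d, moved less and in opposite directions. It averaged 39.8, 33.8 and 38.7 TPM on the 3 substrates in C2C12 at day 4, against 28.3 TPM at day 0 (log2 0.60, edgeR adjusted p = 0.0367), and 28.2 TPM in primary cells at day 4, against 48.7 TPM at day 0 (log2 -0.61, edgeR adjusted p = 0.0187). In all, 14 of 38 tested transcripts of Tpm1, Tpm2 and Tpm3 were higher and 4 lower in C2C12 at day 4, where 29.5% of all transcripts tested were called (16.8% higher and 12.7% lower). In primary cells 6 were higher and 6 lower of 36, where 16.7% were called (9.78% higher and 6.9% lower). Transcript counts are estimates that divide reads between transcripts sharing sequence, and the p-values of transcripts do not hold that uncertainty.

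**Figure D3:**
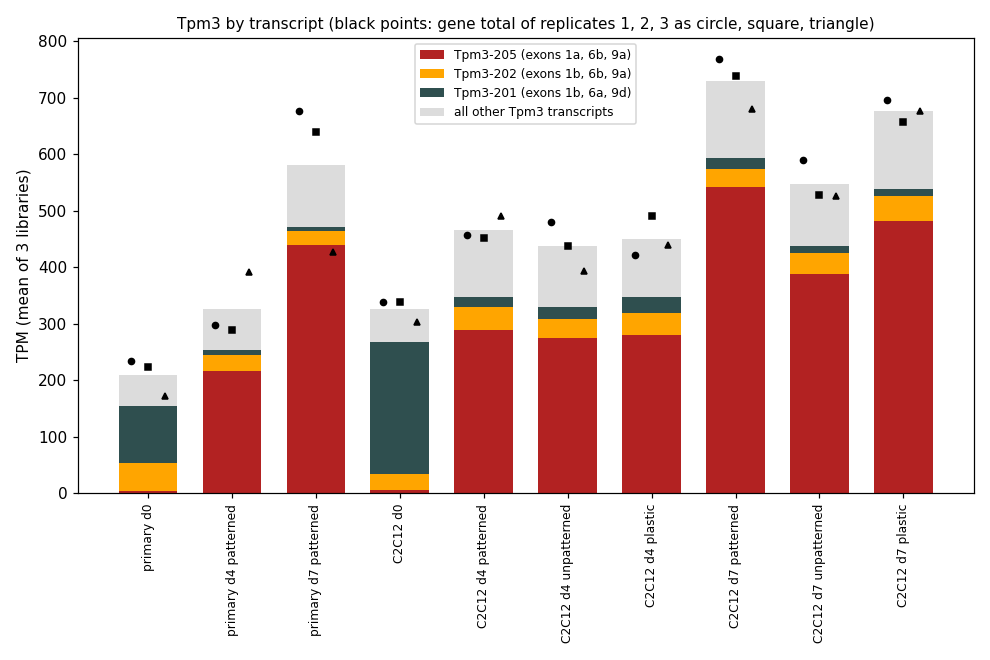
Mean TPM of Tpm3 by transcript in the 10 groups, stacked as Tpm3-205 (exons 1a and 9a), Tpm3-202, Tpm3-201 (exons 1b and 9d) and all others, with points for the gene total of each library. Tpm3-201 makes 71.3% of the C2C12 day 0 bar and Tpm3-205 1.73%, while at day 4 Tpm3-205 makes 61.9% to 62.8%.

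In Tpm1 the striated-muscle form also rose in C2C12, while Tpm1-211 and Tpm1-216 fell by unequal amounts. Tpm1-205, the transcript with exons 1a, 2b, 6b, 9a and 9b, had 1376 to 1714 TPM in C2C12 at day 4, against 100, 126 and 145 TPM at day 0. In primary cells it had 1610, 1705 and 1768 TPM at day 4, against 1172, 1171 and 904 TPM at day 0. The primary day 0 cultures thus held Tpm1-205 as 71.5% of Tpm1 TPM, against 17.1% in C2C12 at day 0. The log2 change was 3.81 in C2C12 (SE 0.15, edgeR adjusted p = 2.38e-12) and 0.82 in primary cells (SE 0.18, edgeR adjusted p = 0.0149). Myog, the differentiation factor, was at 719, 710 and 255 TPM in the primary day 0 libraries and at 137, 168 and 189 TPM in the C2C12 ones. Its part in this difference was not tested. The short form Tpm1-211, with exons 1b and 9d, averaged 5.87, 12.4 and 16.6 TPM in C2C12 at day 4 on the 3 substrates, against 131 TPM at day 0 (log2 -3.41, edgeR adjusted p = 5.29e-05). Tpm1-216, with exons 1a, 2b, 6b and 9d, was the main form in C2C12 at day 0 and fell less. It had 157 to 211 TPM in the 9 C2C12 day 4 libraries, against 297, 305 and 304 TPM at day 0 (log2 -0.51, SE 0.10, edgeR adjusted p = 0.000514). Its share of Tpm1 TPM was 8.55%, 10.2% and 11.1% on the 3 substrates, against 41.9% at day 0. In primary cells it had 106, 69.9 and 14.1 TPM at day 4, against 164, 228 and 131 TPM at day 0, ranges that do not overlap, and did not pass (log2 -1.34, SE 0.78, edgeR adjusted p = 0.305).

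For Tpm2 the striated-muscle and the alternative transcript both rose. Tpm2-202, with exons 6b and 9a, averaged 1700, 1384 and 1426 TPM in C2C12 at day 4 on patterned gelatin, unpatterned gelatin and plastic, against 132 TPM at day 0. Tpm2-203, with exons 6a and 9d, averaged 963, 745 and 779 TPM, against 143 TPM. Both rose in C2C12, by a log2 of 3.70 (edgeR adjusted p = 4.00e-14) and 2.72 (edgeR adjusted p = 1.60e-11), and both rose in primary cells, by 3.11 (edgeR adjusted p = 0.000659) and 2.59 (edgeR adjusted p = 0.0012). The exon 9d form made 34.3% to 35.5% of Tpm2 TPM in C2C12 at day 4.

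Summed over transcripts, exon 9a was present in 60.8 points more of Tpm1 TPM at day 4 than at day 0 in C2C12, in 60.9 points more of Tpm3 TPM and in 16.0 points more of Tpm2 TPM. The share was 82.9% ± 1.97 at day 4 (SD, n = 9) against 22.1% ± 2.93 at day 0 (SD, n = 3) for Tpm1, 63.5% ± 1.02 against 47.5% ± 1.36 for Tpm2, and 72.5% ± 2.92 against 11.7% ± 0.665 for Tpm3. Exon 9d moved the other way, with 11.97% against 66.5% for Tpm1, 35.5% against 52.4% for Tpm2 and 19.9% against 81.6% for Tpm3. At the front of the gene, exon 1a was in 69.1% of Tpm3 TPM at day 4 against 3.29% at day 0, and exon 1b in 16.2% against 82.5%. In the middle, exon 6b was in 72.4% of Tpm3 TPM against 12.3%. Of 22 such shares over the 3 genes, 21 had day 4 and day 0 ranges apart, each with a two-sided exact permutation p of 0.00909, the smallest that 9 against 3 libraries allow (0.00952 adjusted over the 22). The exception was exon 9c of Tpm3, at 2.19% ± 0.489 against 1.69% ± 0.439 (exact permutation p = 0.164). The 9 day 4 libraries pool 3 substrates, while day 0 was on plastic alone. These p-values and the day 4 SD therefore also hold differences between substrates. Shares of other genes were not taken for comparison. The shares of a gene are parts of the same total, so the 21 are not separate results. Kallisto divides reads between transcripts that share most of their sequence, so these shares are estimates, and a transcript with exons 9a and 9d, such as Tpm3-202, counts under both.

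**Figure D4:**
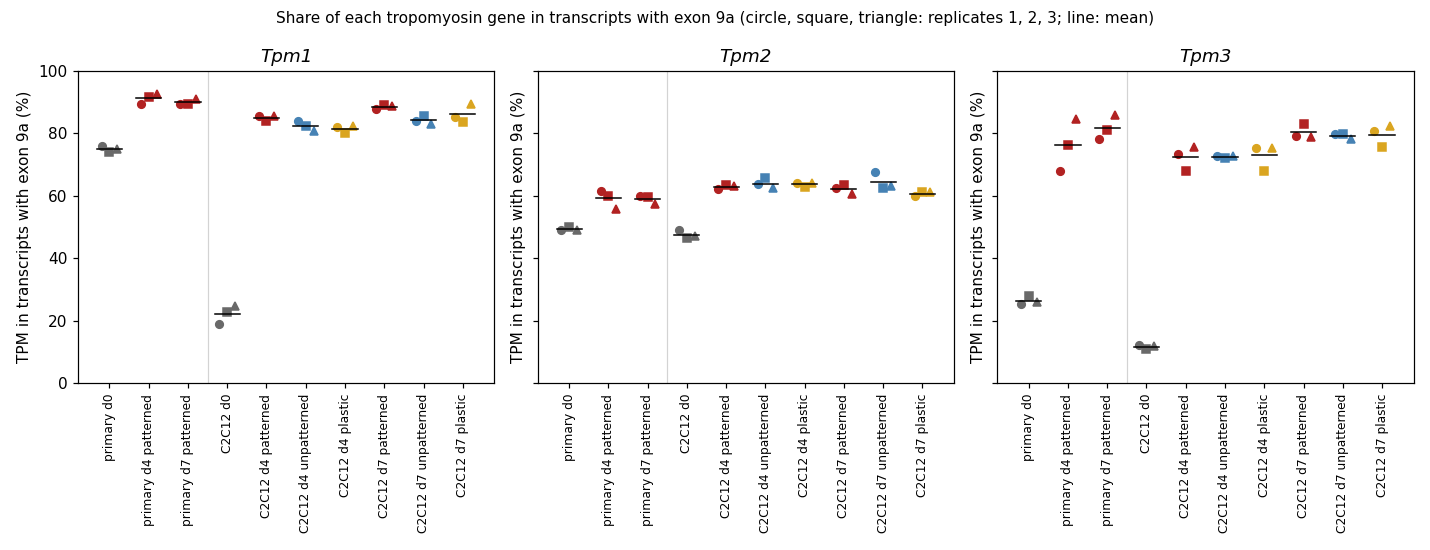
Percent of each gene's TPM in transcripts that contain exon 9a, for Tpm1, Tpm2 and Tpm3 in every library of the 10 groups. Tpm1 and Tpm3 stand at 18.9% to 24.6% and 10.97% to 12.3% in the C2C12 day 0 libraries, while primary day 0 libraries hold 74.0% to 76.0% of Tpm1 and 25.2% to 27.7% of Tpm3 with this exon. Most of the Tpm3 share at day 0 is Tpm3-202, which has exon 1b (8.67% in C2C12 and 23.2% in primary cells). Tpm3-205, with exon 1a, makes 1.73% and 1.84%.

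Primary cells showed the same direction for exon 9a in all 3 genes. The share was 89.5%, 91.6% and 92.5% of Tpm1 TPM at day 4, against 76.0%, 74.0% and 75.0% at day 0. For Tpm3 it was 67.9%, 76.1% and 84.5%, against 25.2%, 27.7% and 26.0%. For Tpm2 it averaged 59.2% ± 2.97 against 49.4% ± 0.642 (SD, n = 3 each). None of these ranges overlap, but 3 libraries against 3 cannot give an exact permutation p below 0.1. Replicate 3, with the lowest Myh3 level, had the largest Tpm3 share at day 4. At day 0 most of the Tpm3 share with exon 9a was Tpm3-202, which has exon 1b. It made 23.2% of Tpm3 TPM in primary cells, against 1.84% for Tpm3-205. By day 7 exon 9a was in 80.3%, 79.2% and 79.5% of Tpm3 TPM on patterned gelatin, unpatterned gelatin and plastic in C2C12 and in 81.7% in primary cells.

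The second question is what happened between days 4 and 7. In C2C12, over the 3 substrates, Tpm1, Tpm3 and Lmod2 rose and Tpm4 and Tmod3 fell, which are 5 of the 10 where 25.7% of all genes were called (13.4% higher and 12.3% lower). None of these changes reached 0.4 on the log2 scale. Tpm3 rose by 0.34 on the log2 scale (SE 0.05, edgeR adjusted p = 0.000111), with 768, 739 and 680 TPM on patterned gelatin at day 7, 589, 528 and 527 TPM on unpatterned gelatin and 697, 657 and 677 TPM on plastic, each above every day 4 library. It was the only one of the 10 whose day 7 and day 4 ranges stood apart, where 2.42% of all genes did. Lmod2 rose by 0.31 (SE 0.06, edgeR adjusted p = 0.00172) and Tpm1 by 0.23 (SE 0.05, edgeR adjusted p = 0.00217). Tpm4 fell by 0.25 (SE 0.05, edgeR adjusted p = 0.00067) and Tmod3 by 0.21 (SE 0.05, edgeR adjusted p = 0.00891). On plastic alone, where the day 7 and day 4 cultures share their substrate with day 0, 3 of the 10 passed the edgeR test: Tpm4 (-0.38, adjusted p = 0.00419), Lmod2 (0.48, adjusted p = 0.00745) and Tmod2 (0.74, adjusted p = 0.0206). Tpm1 (0.11, adjusted p = 0.44), Tpm3 (0.26, adjusted p = 0.054) and Tmod3 (-0.22, adjusted p = 0.13) did not pass there by the same edgeR test.

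In primary cells none of the 10, and 0% of all genes (0 of 14352), passed by the edgeR test between day 7 and day 4, although DESeq2 called 43 and 666 fell under 0.05 before adjustment. Tpm3 stood at 677, 639 and 426 TPM at day 7, against 298, 289 and 392 TPM at day 4, its ranges apart where 9.61% of all genes had ranges apart. Its log2 change was 0.73 (SE 0.20, edgeR adjusted p = 0.901), and 1.06 without replicate 3 (edgeR adjusted p = 0.0143). Tmod4 had 5.91, 7.59 and 1.14 TPM at day 7 against 1.35, 2.36 and 0.361 TPM at day 4, with overlapping ranges. In all 3 pairs of same-numbered libraries the day 7 value was the higher, for Tpm3 and for Tmod4. With the replicate number as a block, again none of the 10 and 0 of 14352 genes passed (1667 at an unadjusted p under 0.05), with 0.72 for Tpm3 (edgeR adjusted p = 0.260) and 1.71 for Tmod4 (edgeR adjusted p = 0.204). The other 8 had overlapping ranges as well, and replicate 3 was the lowest of the day 7 libraries for Tpm1 (2497, 2162 and 1570 TPM) and Tpm2 (3336, 2882 and 1733 TPM).

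The third question is whether patterning changed these genes in C2C12. At day 4 none of the 10 passed the edgeR test between patterned and unpatterned gelatin, where 0.00674% of all genes were called (1 of 14844, with 1281 at an unadjusted p under 0.05 and 145 called by DESeq2). DESeq2 called 2 of the 10, Tpm4 and Tmod1. Ranges of TPM stood apart for 8 of the 10, 6 higher and 2 lower on patterned gelatin, against 18% of all genes (10.2% higher and 7.74% lower). Tpm4 had 227, 238 and 218 TPM on patterned against 265, 274 and 300 TPM on unpatterned gelatin (log2 -0.34, SE 0.08, edgeR adjusted p = 0.135). Tmod1 had 100, 122 and 117 TPM on patterned against 92.8, 85.1 and 84.3 TPM on unpatterned gelatin (log2 0.35, SE 0.09, edgeR adjusted p = 0.171). Tpm2 had 2620, 2812 and 2697 TPM on patterned against 2327, 2061 and 2132 TPM on unpatterned gelatin (log2 0.28, edgeR adjusted p = 0.329). In these 3 genes no library of one substrate reached the range of the other. Lmod2 had 249, 248 and 259 TPM against 201, 202 and 212 TPM (log2 0.27, edgeR adjusted p = 0.486), and Lmod3 had 235, 232 and 237 TPM against 194, 180 and 201 TPM (log2 0.26, edgeR adjusted p = 0.593).

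**Figure D5:**
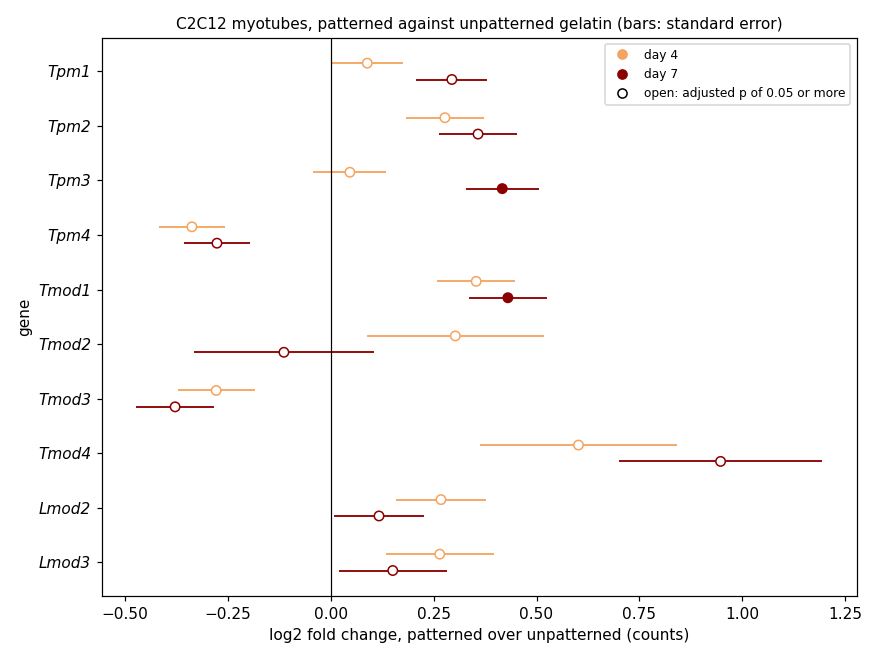
Log2 fold change of patterned over unpatterned gelatin in C2C12 at day 4 and day 7 with bars of 1 standard error. Filled points passed an adjusted p of 0.05, which are Tpm3 at 0.42 and Tmod1 at 0.43 on day 7; most of the 10 lie above 0 at both days and Tpm4 and Tmod3 below 0 at both.

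At day 7 Tpm3 and Tmod1 were called higher on patterned gelatin, 2 of the 10 where 0.546% of all genes were called (0.397% higher and 0.148% lower). Tpm3 had 768, 739 and 680 TPM on patterned against 589, 528 and 527 TPM on unpatterned gelatin (log2 0.42, SE 0.09, edgeR adjusted p = 0.0402). Tmod1 had 121, 132 and 89.0 TPM on patterned against 82.1, 84.0 and 91.7 TPM on unpatterned gelatin (log2 0.43, SE 0.09, edgeR adjusted p = 0.0462). Ranges stood apart for 5 of the 10, with Tpm1, Tpm2 and Tpm3 higher and Tpm4 and Tmod3 lower, against 13.5% of all genes (8.01% higher and 5.46% lower). The Tmod1 ranges overlap, and patterned replicate 3 lay below unpatterned replicate 3. That library was the shallowest of all, at 13.1 M counts, and was the lowest patterned day 7 library for all 10 genes. DESeq2 called 7 of the 10. By edgeR, neither call outlasted leaving out any single unpatterned library, a fit without the filter on low counts or a fit on the 6 libraries alone, and the Tmod1 call was also lost with RLE size factors and on TPM. Both were lost without patterned replicate 2, and Tpm3 also without patterned replicate 3. Of the rest, Tmod3 (17.6, 18.7 and 13.5 against 24.3, 19.0 and 21.8 TPM) gave -0.38 (edgeR adjusted p = 0.0750), Tpm4 (222, 224 and 189 against 243, 248 and 262 TPM) gave -0.28 (edgeR adjusted p = 0.109), Tpm1 gave 0.29 (edgeR adjusted p = 0.110) and Tpm2 gave 0.36 (edgeR adjusted p = 0.0879). The effect of pattern was not shown to differ between days for any gene: 0 of 14844 passed for day 7 less day 4 by edgeR, with 1064 at an unadjusted p under 0.05 and 5 by DESeq2, and Tpm3 gave 0.37 (adjusted p = 0.661).

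Against plastic few of the 10 passed. Patterned gelatin against plastic gave 0 of the 10 at day 4 by edgeR, where 3.55% of all genes were called (2.1% higher and 1.46% lower), and DESeq2 called 1, Lmod2. Lmod2 had 249, 248 and 259 TPM on patterned gelatin against 184, 163 and 191 TPM on plastic (log2 0.33, edgeR adjusted p = 0.106). In the plastic libraries at day 4 the single gene Gm20594 took 10.1% to 11.5% of TPM, against 1.06% to 6.19% in the others, and the median of all genes for patterned gelatin against plastic was 0.12 on log2(TPM + 1), and 0.00 without that gene. At day 7 Tmod2, below 0.8 TPM in both groups, was lower on patterned gelatin (log2 -0.78, SE 0.21, edgeR adjusted p = 0.0156), the only one called where 23.8% of all genes were (12.9% higher and 10.9% lower). It was not called without patterned replicate 3 (edgeR adjusted p = 0.059) or plastic replicate 1 (edgeR adjusted p = 0.073). Unpatterned gelatin against plastic gave 0 of the 10 at day 4 by edgeR, where 7.89% were called (4.02% higher and 3.87% lower), and DESeq2 called 1, Tpm4. At day 7 it gave 1 of the 10, where 3.46% were called (2.49% higher and 0.977% lower): Tpm4, with 243, 248 and 262 TPM on unpatterned gelatin against 195, 210 and 182 TPM on plastic (log2 0.41, SE 0.08, edgeR adjusted p = 0.00899). The Tpm4 call was lost in a fit on the 6 libraries of the comparison (edgeR adjusted p = 0.0935). TPM ranges stood apart for 6 of the 10 there, with Tpm4 higher and Tpm2, Tpm3, Tmod1, Tmod2 and Lmod3 lower on unpatterned gelatin, against 21.9% of all genes (7.15% higher and 14.7% lower). For patterned gelatin against plastic they stood apart for 6 of the 10 at day 4, all higher (40.5% of all genes, 36.2% higher and 4.29% lower), and for 3 at day 7, 1 higher and 2 lower (30.2%, 12.9% higher and 17.3% lower). For unpatterned gelatin against plastic at day 4 they stood apart for 3, all higher (41.9%, 33.2% higher and 8.62% lower).

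The last comparison sets primary cells beside C2C12 of the same day. At day 0 both are labelled as plastic cultures, though the methods give a gel coating and another growth medium for primary myoblasts. There 4 of the 10 were higher and 4 lower in primary cells, where 57.5% of all genes were called (29.6% higher and 27.9% lower). Tpm1 (log2 0.79, edgeR adjusted p = 1.06e-05), Tpm2 (0.67, adjusted p = 0.00716), Lmod2 (0.97, adjusted p = 3.90e-06) and Lmod3 (1.04, adjusted p = 1.06e-05) were higher. Tpm3 (-0.69, edgeR adjusted p = 0.000119), Tpm4 (-1.19, adjusted p = 0.0113), Tmod3 (-1.12, adjusted p = 0.000309) and Tmod4 (-3.72, adjusted p = 0.000117) were lower. Tmod1, the striated-muscle tropomodulin, gave -0.33 (edgeR adjusted p = 0.0546). Tpm2 held 568, 492 and 227 TPM in primary cells against 258, 296 and 309 TPM in C2C12, so that the ranges overlap and primary replicate 3 lay below every C2C12 library. The Tpm2 call was lost on TPM (limma adjusted p = 0.0805), in a fit on the compared groups (edgeR adjusted p = 0.0831) and without primary day 0 replicate 1. The Tpm4 call was lost without primary day 0 replicate 3 where that 1 library was left out. Without replicate 3 in all primary groups, the log2 differences were 0.89 for Tpm1, 0.97 for Tpm2, 0.91 for Lmod2, 1.22 for Lmod3, -0.59 for Tpm3, -0.96 for Tpm4, -0.95 for Tmod3 and -3.41 for Tmod4. All 8 then passed the edgeR test, and Tmod2 passed as well, at 0.62. Fibroblast markers summed to 5.07 to 17.2 TPM in primary and 190 to 415 TPM in C2C12 libraries, and their part in these differences was not tested.

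On patterned gelatin, 1 of the 10 was higher and 4 were lower in primary cells at day 4, where 50.6% of all genes were called (25.7% higher and 25% lower). At day 7, 3 were higher and 2 lower, where 51.5% were called (25% higher and 26.4% lower). Tmod1 was higher on both days, by a log2 of 0.57 at day 4 (edgeR adjusted p = 0.00161) and 0.59 at day 7 (edgeR adjusted p = 0.00117). Its values at day 7 were 189, 161 and 128 TPM in primary cells against 121, 132 and 89.0 TPM in C2C12. Tpm4 was lower on both days, with -1.66 (edgeR adjusted p = 0.0011) and -1.82 (edgeR adjusted p = 0.000463), and so was Tmod3, with -1.74 (edgeR adjusted p = 2.86e-06) and -1.57 (edgeR adjusted p = 1.25e-05). Tmod3 held 6.36, 6.17 and 2.87 TPM in primary cells at day 7, against 17.6, 18.7 and 13.5 TPM in C2C12. Tpm3 (-0.39, edgeR adjusted p = 0.0191) and Tmod4 (-1.37, edgeR adjusted p = 0.0322) passed as lower at day 4, and Tmod2 (0.80, edgeR adjusted p = 0.0429) and Lmod3 (0.42, edgeR adjusted p = 0.0294) passed as higher at day 7. In a fit on the compared groups alone the Tpm3 and Tmod4 calls at day 4 and the Tmod1, Tmod2 and Lmod3 calls at day 7 were lost. Without replicate 3 of the primary cells the day 4 values were 0.62 for Tmod1, -1.20 for Tpm4, -1.40 for Tmod3, -0.53 for Tpm3 and -0.94 for Tmod4. The day 7 values were 0.75 for Tmod1, 0.85 for Tmod2, 0.53 for Lmod3, -1.43 for Tpm4 and -1.25 for Tmod3. Each of these passed the edgeR test, as did Tmod2 at day 4 (0.75) and Tmod4 (0.82) and Lmod2 (0.34) at day 7. Tpm1 and Tpm2 did not pass on either day.

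The change between day 4 on patterned gelatin and day 0 was then compared between the kinds of cells in a joint fit, where 20.5% of all genes were called (9.87% larger and 10.6% smaller in primary cells). Of the 10 genes, 1 had a larger change in primary cells, Tmod1 (log2 0.90, SE 0.20, edgeR adjusted p = 0.00222). Smaller changes in primary cells were found for Tpm1 (-0.75, SE 0.18, adjusted p = 0.00382), Lmod2 (-0.71, SE 0.20, adjusted p = 0.0106) and Lmod3 (-0.79, SE 0.23, adjusted p = 0.0162) by the same edgeR test. The Lmod3 call was lost without any of 4 single libraries: primary day 4 replicate 1, primary day 0 replicate 1 and C2C12 day 0 replicates 1 and 2. Without primary replicate 3 these were 0.83, -0.89, -0.76 and -1.04, and Tpm2 (-0.88), Tmod3 (-0.45) and Tmod4 (2.47) passed as well, which made 7. With all libraries, Tpm1, Lmod2 and Lmod3 were already higher in primary cells at day 0, by 0.79, 0.97 and 1.04. At day 4 on patterned gelatin they differed by 0.04, 0.26 and 0.25, and none of them passed. Tmod1 differed by -0.33 at day 0, which did not pass, and by 0.57 at day 4, which did.

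Ranked over the 10 groups, Tpm1 was highest in C2C12 on patterned gelatin at day 7 (2596 ± 111 TPM) and lowest in C2C12 at day 0 (721 ± 13.4 TPM, SD, n = 3 each). Tpm4 was highest in C2C12 at day 0 (704 ± 55 TPM) and lowest in primary cells at day 7 (54.5 ± 28 TPM). For Tmod1 the first places were primary day 7 (159 ± 31 TPM) and primary day 4 (150 ± 19 TPM), which overlapped each other and lay apart from the C2C12 groups except that primary day 7 reached down into the range of C2C12 day 7 on patterned gelatin (114 ± 22 TPM). Tpm3 ran from C2C12 on patterned gelatin and on plastic at day 7 (729 ± 44.7 and 677 ± 19.9 TPM, overlapping) down to primary cells at day 0 (210 ± 33.5 TPM), which stood apart from the next group. Lmod2 was highest in primary cells at day 7 (301 ± 30.7 TPM), with C2C12 on plastic (289 ± 37.5 TPM) and on patterned gelatin (275 ± 40.1 TPM) at day 7 next and overlapping it, and lowest in C2C12 at day 0 (6.33 ± 0.669 TPM), apart from primary cells at day 0 (11.5 ± 1.13 TPM). Tmod3 was highest in C2C12 at day 0 (40.1 ± 3.29 TPM), apart from every other group, and lowest in primary cells at days 4 and 7 (5.39 ± 2.57 and 5.14 ± 1.96 TPM).

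The genes whose log2(TPM + 1) ran most like each member over the 10 group means were taken from 10614 genes, as a description. Lmod2 ran with Acta1, skeletal alpha-actin (r = 0.998), and Jph1 (r = 0.998), and Lmod3 with Tead4 (r = 0.999) and Tnnt3, fast troponin T (r = 0.997). Tpm2 ran with Lmod2 and Acta1 (r = 0.997 each), and Tmod1 with Paxx (r = 0.994) and Twf2 (r = 0.991). Tpm4 ran with Hist1h1e (r = 0.997) and Fhl2 (r = 0.995), and Tmod3 with Rhoa (r = 0.996) and Fnip2 (r = 0.995). Tpm1 was nearest to Chrnd (r = 0.987), Tpm3 to Apba3 (r = 0.975) and Tmod4 to Sec22c (r = 0.954). Of the 10 points, 2 are day 0 groups and 8 are later ones.

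Other thin filament genes were counted from lists written with earlier results of these data known, beside 33.1% of all genes higher and 32.1% lower in C2C12 and 20.2% and 22.4% in primary cells. Of 8 troponins, all 8 rose in C2C12 by day 4 (median log2 4.77) and 7 in primary cells (median 3.60). Of 6 actins, 3 rose and 3 fell in C2C12: Acta1 rose by 4.39 and cardiac Actc1 by 4.40, while the cytoplasmic Actb and Actg1 fell by 1.66 and 1.59. Of 12 other genes of thin filament length and stability, 9 rose and 2 fell in C2C12, among them Klhl40 (4.40), which stabilises nebulin and Lmod3, and its relative Klhl41 (4.75), and 7 rose and 1 fell in primary cells. Of 13 barbed-end cappers and turnover factors, 4 rose and 7 fell in C2C12 and 2 rose and 7 fell in primary cells. Of 10 non-muscle filament proteins, 1 rose and 7 fell in C2C12 and 6 fell in primary cells. Of 13 genes of the SRF and MRTF pathway, 3 rose and 6 fell in C2C12, and 6 fell in primary cells. Of 18 tested splicing regulators, 6 rose and 7 fell in C2C12, shares near those of all genes: Rbfox1 by 5.79 and Rbm24 by 2.35 upward, and Ptbp1 by -1.38, with -1.65 for Ptbp1 in primary cells. Between patterned and unpatterned gelatin no gene of these lists passed at day 4, and Nrap (0.50, edgeR adjusted p = 0.0462) and Srsf5 (0.29, edgeR adjusted p = 0.0484) did at day 7.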

How the data were processed

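Total RNA from 21 C2C12 and 9 primary myoblast libraries was sequenced paired-end by the study (NEBNext libraries), and each library was quantified by the authors with kallisto, whose version, like its annotation, is not given in the sources used here. The build per the labels is mm10. The deposited tables hold an estimated count (expected count) and a TPM for each transcript, in which the authors corrected TPM for effective length. The lengths used here are the deposited lengths.

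Transcripts were matched by identifier to GENCODE M21 (86031 of 88198; the rest held 0.723% to 0.893% of counts). Counts were summed per gene, rounded and tested with edgeR 4.0.16 in R 4.3.3: TMM factors, filterByExpr, quasi-likelihood F test, Benjamini-Hochberg adjustment over all genes tested, called at 0.05. C2C12 (14844 genes), primary (14352) and joint (15447) fits were separate, and all 10 members passed the filter in each. The standard error was the absolute log2 fold change over the square root of F. Alternatives were DESeq2 1.42.0, limma 3.58.1 on log2(TPM + 1) and log2(TPM + 0.1) (genes of at least 1 TPM in 3 libraries), RLE size factors, no filter, the compared groups alone, a replicate block and each library left out. Scaling by library size only, TPM without Gm20594, no primary replicate 3 and plastic libraries alone were added after seeing the data. Exon content came from the annotated exons of each transcript, and shares were compared with exact permutation tests (scipy 1.17.1, two-sided). Scripts used Python 3.11.15, pandas 2.3.3, numpy 2.4.6, matplotlib 3.10.9 and the R package data.table (version 1.17.8), and were tested on simulated data.

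Same-numbered primary libraries deviated together (9 pairs, r between 0.207 and 0.780), in a set where replicate 3 stood apart on every day. The sources do not state what the numbers mark. The main primary and joint fits did not treat same-numbered libraries as pairs. With the replicate block the primary day 4 against day 0 fit called the same number of members, 7, while all-gene calls were 8277 against 6116.

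All 10 members are named, with overlapping genes and retrogenes. From each list of other thin filament genes up to 4 with the smallest adjusted p in C2C12 at day 4 against day 0 may be named, and up to 4 that passed for pattern at day 7. Myh3, Tagln, Ckm, Myog, Acta2, Myh11, Cnn1, Stmn2 and Gm20594 were named after their values were seen. Transcripts of Tpm1, Tpm2 and Tpm3 are named where they took at least 10% of the gene's TPM on average in some group, and for each member the genes of highest Pearson r over the 10 group means, among genes of at least 5 TPM. The members, lists and tests were chosen with earlier results of these data known. Each p-value measures the spread between libraries only, and intervals cover counting error only.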

Additional observations from a re-analysis of the deposited data

Results flagged for a closer look

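For 4 genes the change between day 4 on patterned gelatin and day 0 differed between primary cells and C2C12 by the interaction term of the joint edgeR fit (Benjamini-Hochberg). The difference, primary less C2C12, was 0.90 for Tmod1, -0.75 for Tpm1, -0.71 for Lmod2 and -0.79 for Lmod3 on the log2 scale. Tmod1, Lmod2 and Lmod3 rose in both kinds of cells, and Tpm1 in C2C12. The Tpm1 difference of -0.75 is from counts, which are not corrected for transcript length. Between day 0 and day 4 on patterned gelatin, mean Tpm1 transcript length fell from 1664 to 1283 bases in C2C12. In primary cells it fell from 1325 to 1229 bases. Mean Tpm1 TPM, which is corrected for length, went from 721 to 1992 in C2C12 and from 1514 to 1893 in primary cells. For the Lmod3 difference of -0.79 the edgeR adjusted p was 0.068 in a fit on the compared groups alone. Groups of 3 libraries were not tested for a single library standing apart.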

How the results depend on the processing

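Most calls kept their direction and side of the threshold. Tpm3 in C2C12 at day 4 against day 0 turned sign, from a count change of -0.13 that was not called to log2 changes called on TPM of 0.46 with 1 added, 0.46 with 0.1 added and 0.47 without Gm20594, while scaling by library size alone gave -0.31. Of the 10 members, patterned against unpatterned gelatin at day 4 called 2 with DESeq2 and 1 with the compared groups alone, against 0. At day 7, against 2, it called 7 with DESeq2, 1 with RLE factors, 0 without the filter, 1 on TPM with 1 added, 1 with 0.1 added, 1 without Gm20594 and 0 with the compared groups alone. Patterned gelatin against plastic at day 4 called 1 with DESeq2, 1 and 1 on TPM and 1 with the compared groups alone, against 0. At day 7, against 1, it called 2 with DESeq2, 2 with library size alone, 0 on TPM with 0.1 added, 0 without Gm20594 and 0 with the compared groups alone. Unpatterned gelatin against plastic at day 4 called 1 with DESeq2, 1 and 1 on TPM and 4 with the compared groups alone, against 0, and at day 7 called 2 with DESeq2 and 0 with the compared groups alone, against 1. C2C12 day 7 against day 4 called 3 on plastic alone, against 5. With the compared groups alone, primary against C2C12 called 3 at day 4 and 2 at day 7, against 5 and 5. Without replicate 3, primary day 7 against day 4 called 1 and the difference between kinds of cells 7, against 0 and 4.

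Leaving out 1 library at a time gave 0 to 3 members for patterned against unpatterned gelatin at day 7, 0 to 1 for patterned gelatin against plastic at day 7, 0 to 1 for primary day 7 against day 4, 5 to 7 for primary day 4 against day 0, 3 to 6 and 3 to 7 for primary against C2C12 at days 4 and 7, 3 to 7 for the difference between kinds of cells, and 7 to 11 transcripts against 12 for primary day 4 against day 0. The exon 9a difference in C2C12 ran from 59.2 to 62.1 points for Tpm1, 15.5 to 16.8 for Tpm2 and 60.5 to 61.5 for Tpm3, and in primary cells from 15.6 to 17.0, 8.55 to 11.4 and 45.7 to 54.0.

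C2C12 libraries share only a number (63 pairs, r between -0.190 and 0.223, 7 of 21 libraries closest to their own number). With a replicate block C2C12 called 9 members for day 4 against day 0, 5 for day 7 against day 4 and 2 for pattern at day 7, and 12 genes in all for pattern at day 4.

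Over all genes, pattern at day 4 called 1, against 145 with DESeq2, 4 with RLE factors and 71 with the compared groups alone. Pattern at day 7 called 81, against 476 with DESeq2, 145 with the block, 36 on TPM with 0.1 added and 0 with the compared groups alone. Patterned gelatin against plastic called 527 at day 4, against 1000 with DESeq2 and 2413 with the compared groups alone, and 3537 at day 7, against 21 with the compared groups alone. Unpatterned gelatin against plastic called 1171 at day 4, against 1794 with DESeq2 and 3223 with the compared groups alone. Primary day 7 against day 4 called 0, against 43 with DESeq2 and 124 without replicate 3. The median of all genes lay at -0.20 in C2C12 and -0.19 in primary cells at day 4 against day 0 with library size alone. The higher share of calls there was 36.4% in C2C12 and 36.6% in primary cells with library size alone, and 41.0% and 39.7% on TPM, against 50.8% and 47.5%. On TPM the higher share of calls was 80.0% for C2C12 day 7 against day 4 (52.0% on counts), 95.1% for patterned gelatin against plastic at day 4 (59.0%), 35.7% at day 7 (54.3%) and 93.7% for unpatterned gelatin against plastic at day 4 (51.0%). For primary against C2C12 it was 42.0%, 33.1% and 35.8% at days 0, 4 and 7 (51.5%, 50.7% and 48.7%), and for unpatterned gelatin against plastic and pattern at day 7 it was 55.2% (71.8%) and 62.7% (72.8%). Tmod2 and Tmod4, at a few reads to about 135 reads a library, are limited by depth.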
